A study of Danio rerio with 12 samples.

Results

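The proteasome and chaperone genes are the features whose name starts with psma, psmb, psmc, psmd, hsp or dnaj, or with cct followed by a digit, in either letter case. The rule found 121 of the 32312 features in the deposited tables. They comprised 45 proteasome features, 31 heat shock features, 37 DnaJ features and 8 chaperonin features. Among the proteasome features 9 were alpha and 12 beta subunits of the 20S core, and 7 were ATPases and 16 other features of the 19S regulator. Among these 16, psmd9 and psmd10 encode assembly chaperones of the regulator and are counted here with its subunits. The heat shock features held 11 of the Hsp70 family, 4 of the Hsp90 family, 10 small heat shock proteins and 3 others. Matches by name alone were psmc3ip, which is not a proteasome subunit, and hspg2 (perlecan), hspbap1 and hspc049l (wdr91), which are not heat shock proteins. The chaperonin subunit gene tcp1 does not match the rule and is not counted.

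The study sorted GFP-positive and GFP-negative cells from dissociated whole zebrafish embryos and larvae, aiming at catecholaminergic neurons, and made 1 library per sort, 12 in all. At 24 h after fertilization the GFP-positive cells came from the enhancer trap line ETvmat2:GFP, which then marks neurons of the posterior tuberculum and locus coeruleus, or from Tg(otpb.A:egfp)zc48, which marks ventral diencephalic dopaminergic neurons and also some preoptic neurons. At 36 h and 48 h they came from fish with a th:Gal4VP16 driver and a UAS:EGFP responder, and at 72 h and 96 h from th:GFP BAC fish. The 24 h lines mark further cell populations at later ages. The GFP-negative cells of each pair carried the same transgenes. Outside the ETvmat2:GFP pair, reads and their direction come from the comparison columns of the authors' deposited tables. The 4 libraries of 24 h were made by NanoCAGE and the other 8 by amplified polyA mRNA-seq, so assay, line and age change together between these sets, and levels of different sets are given side by side, with no comparison between them. With 1 library per group no test was possible. Intervals in square brackets are exact 95% intervals of the read ratio, except where they are said to be approximate. They cover counting error only and say nothing of the spread between sorts.

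The proteasome degrades ubiquitin-tagged proteins. Its 20S core is a barrel of alpha and beta rings with the proteolytic sites on beta subunits, and the 19S regulator recognizes, unfolds and feeds in the substrate with a ring of ATPases. Hsp70 and Hsp90 proteins fold clients in cycles of ATP hydrolysis, DnaJ proteins bring clients to Hsp70 and stimulate its ATPase, and the CCT chaperonin is a double ring that folds actin and tubulin among other clients. Separate sets of these chaperones serve the cytosol, the endoplasmic reticulum and mitochondria. Some, such as hsp70l in zebrafish, are switched on by heat shock factor after stress, while others, such as hspa8 and hsp90ab1, are made at all times.

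The libraries differed in depth and in what else they held. Exon reads per library ranged from 495373 to 1367216 in the NanoCAGE set, from 21326333 to 27682819 at 36 h and 48 h, and from 52869 to 79653 at 72 h and 96 h. Reads of 6 genes of catecholamine synthesis and transport (th, th2, ddc, dbh, SLC6A3 and slc18a2) numbered 0 and 24 in the GFP-negative and GFP-positive ETvmat2:GFP libraries and 0 and 6 in the otpb.A:egfp libraries. In the older pairs they numbered 57 and 355 (36 h), 144 and 616 (48 h), 0 and 39 (72 h), and 0 and 26 (96 h). These sums do not stand for each gene. At 36 h 5 of the 6 genes had reads in the GFP-negative library and 3 in the GFP-positive library. GFP-positive libraries also held markers of other cells. At 36 h and 48 h, 11 skin and periderm markers took 45906 and 86286 CPM (reads scaled to a common total of exon reads) in GFP-positive libraries against 4119 and 5056 in GFP-negative ones, and 9 red cell markers took 25041 and 97708 CPM in GFP-negative libraries against 2658 and 5839. The GFP-positive ETvmat2:GFP library held more reads of heart (31 against 2080), leukocyte (5 against 1367) and endothelium markers (135 against 2663) than its GFP-negative partner. In these mixed sorts fewer cells of a type and less RNA per cell cannot be told apart.

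Log2 ratios are GFP-positive over GFP-negative after TMM scaling, with a prior count of 2 for single genes and none for sums. Scaling by total exon reads instead shifts every ratio by 0.63 in the ETvmat2:GFP pair and 0.43 in the otpb.A:egfp pair. The shifts of the older pairs are -0.74 (36 h), 0.14 (48 h), 0.23 (72 h) and 0.10 (96 h). The ratio of 1 class to another within a pair of libraries does not depend on this choice.

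Together the members took between 1.08% and 2.28% of exon reads in each library. Heat shock genes were the largest class in all 12 libraries, from 0.569% to 1.23% of reads, and proteasome genes took 0.190% to 0.663%. The chaperonin class held 0.0900% to 0.332% of reads and the DnaJ class 0.0321% to 0.168%. A pair of genes carried most of the heat shock reads: hsp90ab1, the constitutive cytosolic Hsp90, and hspa8, the constitutive cytosolic Hsp70. On a per-length scale, in RPKM (reads per kilobase of exon, scaled to the library), hspa8 lay between 416 and 1281 RPKM and hsp90ab1 between 653 and 1058 RPKM in the 4 libraries of 36 h and 48 h. The median CCT feature there lay between 46.6 and 118 RPKM, and the median 20S beta feature between 58.5 and 82.1 RPKM. The latter median is over 12 features, among them psmb8, psmb9a, psmb10, psmb11 and PSMB11 (1 of 2), each at most 1.65 RPKM there. The subunits psmb1 to psmb7 lay between 39.7 and 326 RPKM.

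**Figure D1:**
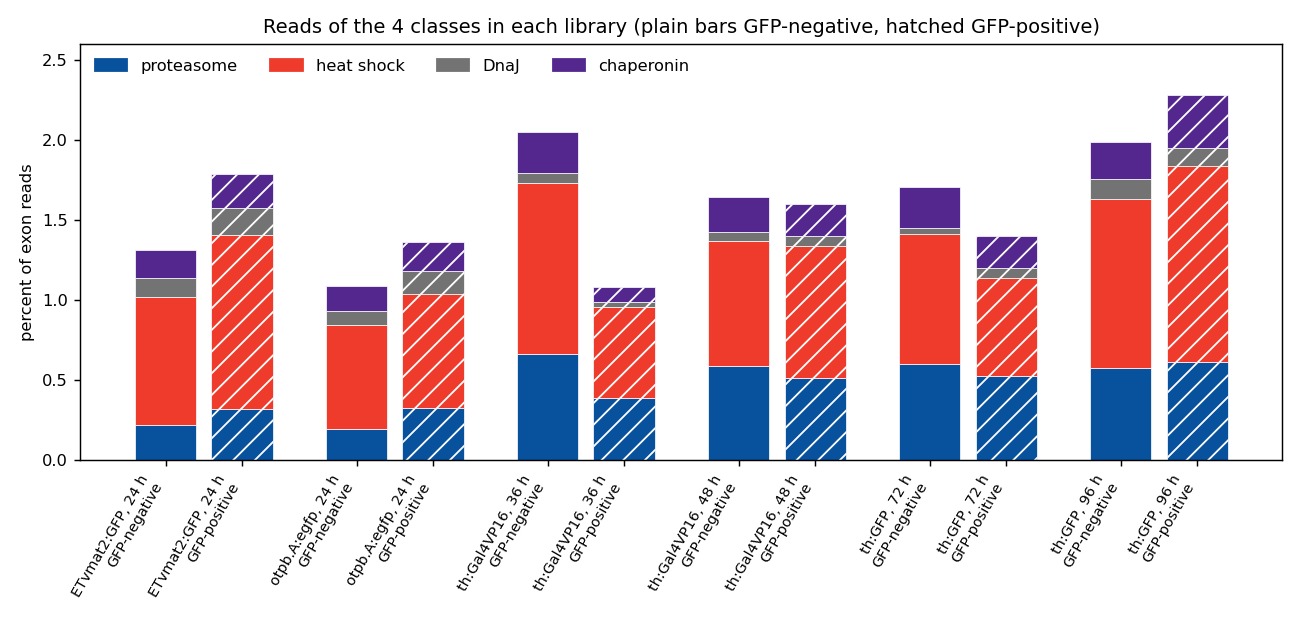
Share of exon reads (percent, linear axis from 0) taken by the proteasome, heat shock, DnaJ and chaperonin classes in each of the 12 libraries, plain bars GFP-negative and hatched bars GFP-positive. The members' summed share was 2.05% (GFP-negative) and 1.08% (GFP-positive) at 36 h, and 1.65% and 1.60% at 48 h.

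Of the 121 members, 78 passed the minimum (at least 5 CPM and 20 reads in the larger library) in the ETvmat2:GFP pair and 65 in the otpb.A:egfp pair. In the older pairs 92 (36 h), 91 (48 h), 17 (72 h) and 20 (96 h) passed. In the ETvmat2:GFP pair 8 differed by 2-fold or more toward GFP-positive and 5 toward GFP-negative cells, where 24.9% and 15.7% of all features past the minimum did. In the otpb.A:egfp pair 8 were higher and 14 lower by this fold, against 10.2% and 25.8% of all features. The 36 h counts were 5 higher and 8 lower against 13.9% and 10.4%. The 48 h counts were 2 and 1 against 17.6% and 6.53%, so few members lay apart where many other features did. In the th:GFP pairs no member was higher and 3 were lower at 72 h (background 5.06% and 22.7%), and 2 were higher and none lower at 96 h (3.73% and 7.02%). With total-read scaling the counts became 15 higher and 0 lower in the ETvmat2:GFP pair, 16 and 6 in the otpb.A:egfp pair, and 1 and 52 at 36 h. That scaling shifts every feature alike, and the share of all features past 2-fold under it is not given here. A feature can pass through the library in which it is high, so these counts describe the members that passed and not all 121. The sums below are over all members of a class, with no minimum.

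With TMM scaling, members below 0 outnumbered those above it in 5 of the 6 sorts. All features also lay mostly below 0 in every pair but that of ETvmat2:GFP. In the ETvmat2:GFP pair 26 of the members that passed were above 0 and 52 below, where 53.8% and 46.2% of all features were. In the otpb.A:egfp pair 29 were above and 36 below, against 34.3% and 65.7%, so members there were below 0 less often than all features. The 36 h counts were 28 and 64 against 45.5% and 54.5%, and those of 48 h were 22 and 69 against 46.3% and 53.7%. The 72 h counts were 2 and 15 against 28% and 72%, and those of 96 h were 12 and 8 against 44.5% and 55.5%. Total-read scaling turned the order in both 24 h pairs, with 57 above and 21 below in the ETvmat2:GFP pair (all features 73.6% and 26.4%) and 39 and 26 in the otpb.A:egfp pair (48% and 52%). The 36 h counts were then 7 and 85 (all features 18.3% and 81.7%), and those of 48 h 34 and 57 (52.9% and 47.1%).

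**Figure D2:**
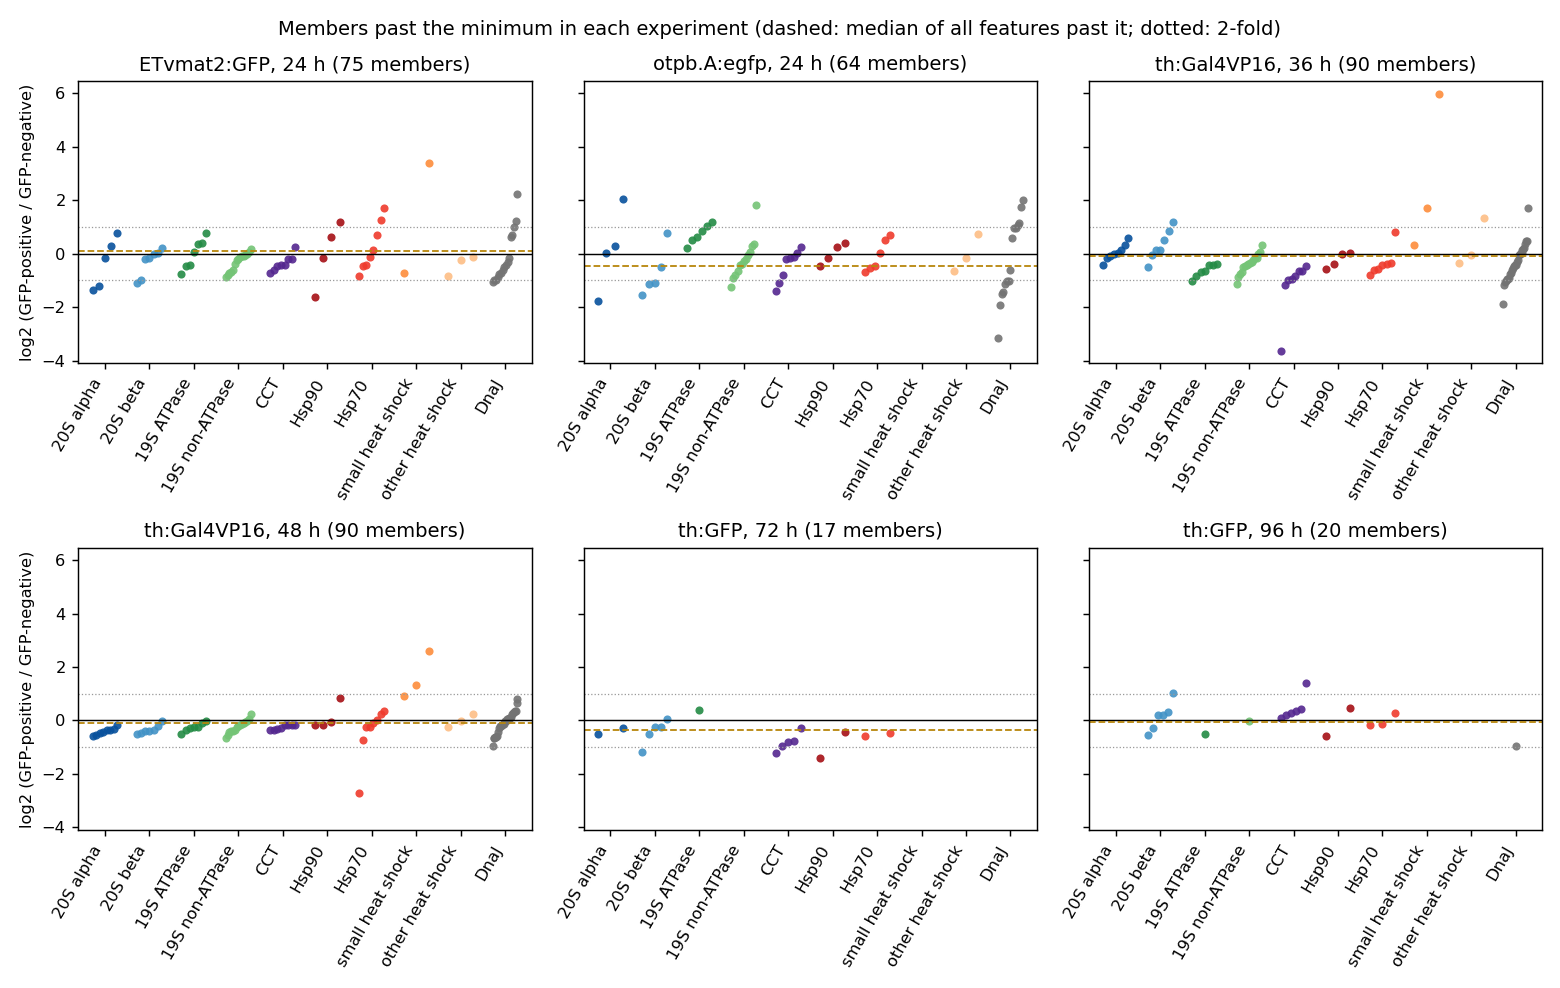
Log2 ratio (GFP-positive over GFP-negative, TMM scaling) of each proteasome, heat shock, DnaJ and CCT member that passed the minimum, 1 point per gene, by subunit group, in the 6 experiments; name-only matches are left out. Dashed lines mark the median of all features past the minimum and dotted lines 2-fold. The CCT points at 36 h all lie below 0, and the 20S points at 48 h do too.

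The proteasome was measured most deeply at 36 h and 48 h. At 48 h its subunits were slightly lower in GFP-positive cells. Of 38 that passed, 36 had a log2 ratio below 0, between -0.90 for the name-only match psmc3ip and 0.24 for psmd2. The summed reads of the class were 162264 in GFP-negative and 128264 in GFP-positive cells, a log2 ratio of -0.33 [-0.34, -0.32], and of -0.19 with total-read scaling. The 20S core stood at -0.37 [-0.38, -0.35] with all 15 subunits that passed below 0, and the 19S regulator at -0.27 [-0.29, -0.26]. None of these subunits was 2-fold apart. The catalytic beta subunits behaved like the rest: psmb5, the chymotrypsin-like site, held 4597 and 3544 reads (log2 ratio -0.36), psmb6, the caspase-like site, held 2663 and 2285 (-0.21), and psmb7, the trypsin-like site, held 10347 and 7887 (-0.38).

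At 36 h the core and the regulator parted. The 20S core held 83079 reads in GFP-negative and 61158 in GFP-positive cells, a log2 ratio of 0.21 [0.19, 0.22], while the 19S regulator held 57975 and 27064, a log2 ratio of -0.45 [-0.47, -0.43]. With total-read scaling both lay below 0, at -0.54 and -1.19. Their contrast, which needs no scaling, was -0.66 (approximate interval [-0.68, -0.63]), against 0.10 [0.07, 0.12] at 48 h. All 7 ATPases of the regulator were below 0, from -0.37 for psmc2 to -1.005 for psmc1a (2992 and 951 reads). In the core, psmb2 (739 bases of exon) was highest with 5421 and 7934 reads, a log2 ratio of 1.197 [1.15, 1.25]. The site subunits split, with psmb6 at 0.84 and psmb5 at -0.48. The 36 h ratios of all features followed exon length, and these groups differ in it. The median log2 ratio was 1.29 over 377 features of up to 700 bases, 0.59 over 558 features of 701 to 1000 bases, 0.08 over 708 features of 1001 to 1300 bases, and between -0.29 and -0.07 in every longer bin. The median exon length was 1043 bases for the core subunits that passed and 1530 bases for the regulator subunits. After the median of features of like length was taken off each gene, an alternative chosen after the data were seen, the core median went from 0.13 to -0.13 and the regulator median from -0.42 to -0.23, so their difference shrank from -0.55 to -0.10. At 48 h the same step changed that difference only from 0.14 to 0.13.

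**Figure D3:**
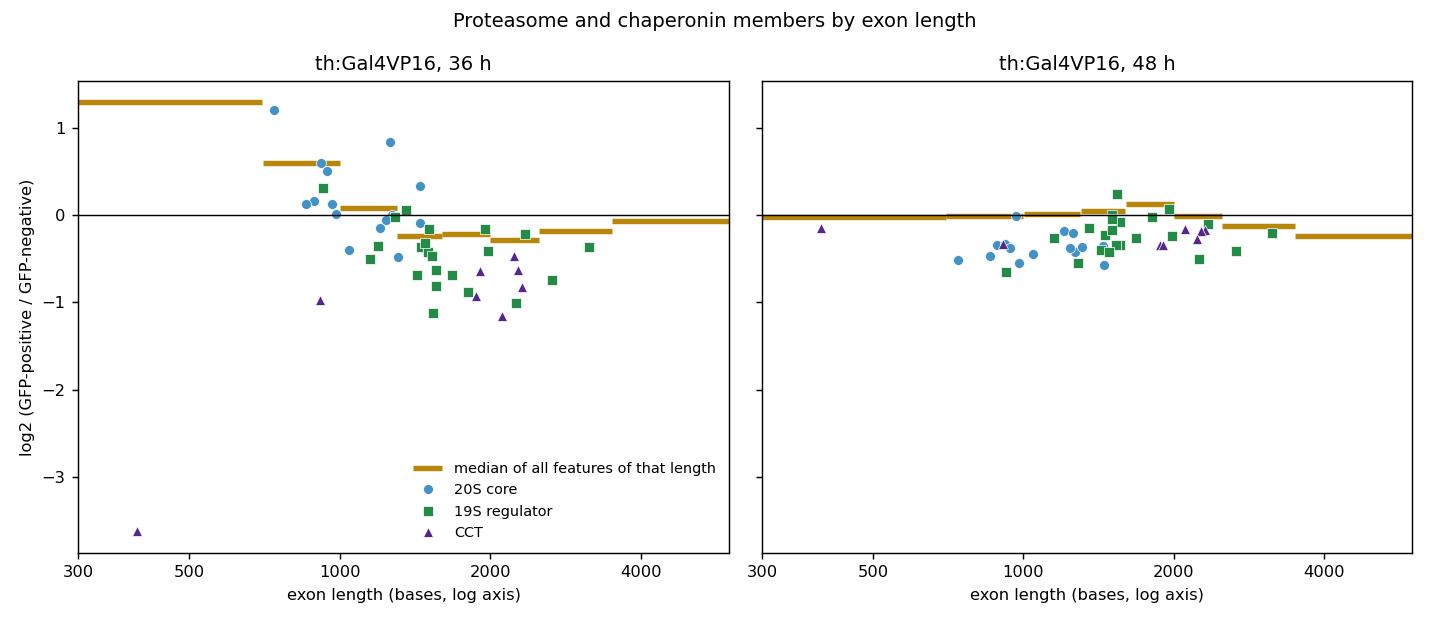
Log2 ratio (GFP-positive over GFP-negative) against annotated exon length (bases, log axis) for the 20S core, 19S regulator and CCT members that passed the minimum at 36 h and 48 h; gold bars give the median of all features in a length bin. The gold bars step from 1.29 in the shortest bin to below 0 beyond 1300 bases at 36 h, and the CCT points lie below their bars there.

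Chaperonin genes were lower in GFP-positive cells at 36 h. All 8 features passed and all 8 were below 0, with summed reads of 54938 in GFP-negative and 20500 in GFP-positive cells, a log2 ratio of -0.77 [-0.80, -0.75] and of -1.52 with total-read scaling. The median of all features past the minimum was -0.09. The subunits ran from cct7 (7709 and 3552 reads, -0.47) and cct6a (8542 and 3520, -0.63) to cct8 (7081 and 2022, -1.16). The feature CCT2 (1 of 2), a 393-base fragment with 240 and 11 reads, stood lowest at -3.62. Taking off the median of features of like length left all 8 below their bins, with a median of -0.63. Relative to the proteasome the chaperonin sum stood at a log2 contrast of -0.74 (approximate interval [-0.77, -0.72]), and relative to the 19S regulator, whose exons are nearer in length, at -0.32 [-0.35, -0.29]. The gene tcp1, which encodes the CCT1 subunit and is not counted, held 6580 and 1674 reads, a log2 ratio of -1.33. At 48 h all 8 features were again below 0, but within -0.34 to -0.15. There the summed reads were 61398 and 50937, a log2 ratio of -0.26 [-0.28, -0.24]. The contrast against the proteasome was then 0.07 [0.05, 0.09].

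The chaperonin sum of the GFP-positive libraries was higher at 48 h than at 36 h. It stood at 900 CPM (36 h) and 2037 CPM (48 h), a TMM log2 ratio of 0.67 [0.65, 0.69], with all 8 features above 0. In the GFP-negative libraries it stood at 2576 and 2218 CPM, a log2 ratio of 0.15 with TMM and -0.22 with total-read scaling. In the GFP-positive comparison 11 of 91 members that passed were higher at 48 h by 2-fold or more and 6 were lower, against 21.3% and 14.7% of all features, and 62 were above 0 and 29 below, against 55.7% and 44.3%. In the GFP-negative comparison 2 of 92 were higher and 2 lower, against 5.94% and 6.47%, and 72 were above 0 and 20 below, against 55.2% and 44.8%. The highest among the GFP-positive genes were CCT2 (1 of 2) with 11 and 284 reads (3.87), the muscle Hsp90 gene hsp90a.1 with 67 and 499 (2.23) and the DnaJ gene dnajb1b with 88 and 564 (2.02). The lowest were hspb7 with 701 and 194 reads (-2.48), dnajc19 with 1254 and 707 (-1.47) and psmb2 with 7934 and 4542 (-1.45). Here too the medians of all features depended on exon length, from -0.79 in the shortest bin to 0.57 at 1601 to 2000 bases. With them taken off the chaperonin median was 0.25 in place of 0.66, with 6 features above their bins and 2 below. The same 36 h libraries enter these values and the 36 h sort comparison above, so the comparisons share libraries. With 1 library per age, age and sort session cannot be told apart. Marker levels of the GFP-positive libraries differed too, with heart at 1433 (36 h) and 242 CPM (48 h) and skeletal muscle at 439 and 3230 CPM. The part of such cells in these ratios was not tested.

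The constitutive cytosolic chaperones carried most of the heat shock class and differed from each other. At 36 h hspa8 held 82916 reads in GFP-negative and 34541 in GFP-positive cells, a log2 ratio of -0.62 [-0.63, -0.60], while hsp90ab1 held 118249 and 74458, a log2 ratio of -0.02. At 48 h hspa8 held 99409 and 99393 reads (0.01) and hsp90ab1 held 86212 and 76209 (-0.17). The Hsp110 genes hspa4a and hspa4b, nucleotide exchange factors of Hsp70, stood at -0.58 and -0.36 at 36 h and at -0.26 and -0.24 at 48 h. All 5 genes of this set were below 0 at 36 h.

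Chaperones of the endoplasmic reticulum, as a sum of 6 genes, were higher in GFP-positive cells of both 24 h lines. For these 6 genes (hspa5, hsp90b1, dnajb11, dnajc3, hspa13 and dnajc10) the summed reads were 532 in GFP-negative and 1252 in GFP-positive ETvmat2:GFP cells, a log2 ratio of 0.96. In otpb.A:egfp cells they were 438 and 380 from libraries of 1367216 and 495373 exon reads, a log2 ratio of 0.83. The collagen chaperone hsp47, which also works in the reticulum and was not in this set, stood at -0.84 (ETvmat2:GFP) and -0.16 (otpb.A:egfp). The 5 constitutive cytosolic genes hspa8, hsp90ab1, hspa4a, hspa4b and hspa14 stood at -0.26 and -0.40 in the same pairs as a sum. With total-read scaling the reticulum sums were 1.59 and 1.26, and the cytosolic sums turned to 0.37 and 0.037. With TMM all 5 cytosolic genes were below 0 in the ETvmat2:GFP pair, where 4 of them turned above 0 with total-read scaling, and in the otpb.A:egfp pair hspa14 stood at 0.70 and hspa4a at 0.03. The contrast of the compartments, which needs no scaling, was 1.22 in both lines, with approximate intervals of [1.06, 1.37] and [1.01, 1.43]. These sets were assembled with the values known.

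Among the single genes dnajb11, the DnaJ partner of BiP, held 172 and 423 reads in the ETvmat2:GFP pair, a log2 ratio of 1.01 [0.76, 1.29], and 167 and 173 reads in the otpb.A:egfp pair, a log2 ratio of 1.07 [0.77, 1.40]. It was the only member higher by 2-fold or more in both lines among 62 that passed in both pairs, where 2.7% of all features that passed in both were. The gene hsp90b1, the Hsp90 of the reticulum, held 118 and 327 reads (1.18 [0.89, 1.51]) and 101 and 65 reads (0.39 [-0.08, 0.86]). The BiP gene hspa5, the Hsp70 of the reticulum, held 199 and 397 reads (0.71 [0.47, 0.97]) and 135 and 96 reads (0.53 [0.15, 0.93]). The cochaperone dnajc3, known in mammals as an inhibitor of the eIF2 alpha kinase PERK, held 7 and 48 reads in the ETvmat2:GFP pair (2.23 [1.35, 3.89]). Of the set summed above, only dnajc10, a reductase of the reticulum, was below 0 in that pair, with 29 and 24 reads (-0.51 [-1.39, 0.28]).

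**Figure D4:**
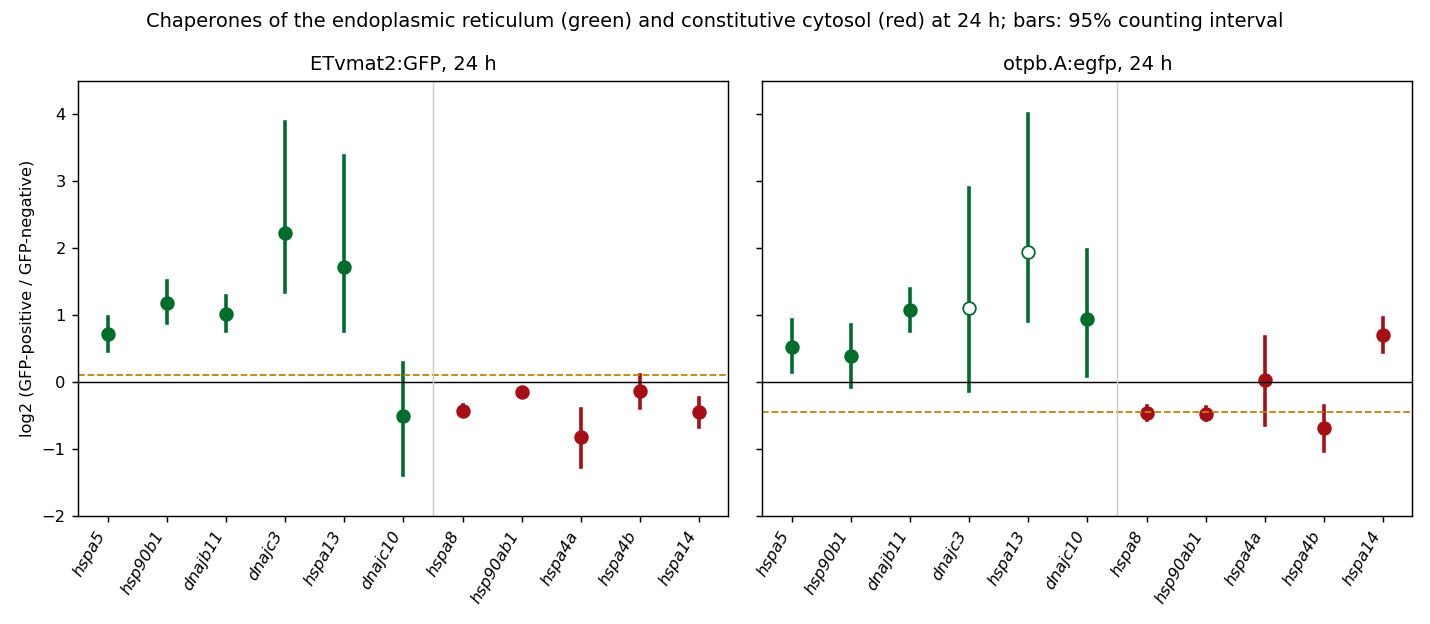
Log2 ratio (GFP-positive over GFP-negative, TMM scaling) of 6 endoplasmic reticulum chaperone genes (green) and 5 constitutive cytosolic chaperone genes (red) at 24 h, with 95% counting intervals as bars; open circles did not pass the minimum and the dashed line is the median of all features past it. In the ETvmat2:GFP pair 5 of the 6 green points lie above the dashed line at 0.10, and in the otpb.A:egfp pair all 6 lie above the line at -0.44.

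Other genes of reticulum folding and its stress response, which are not members, were also higher in the ETvmat2:GFP pair. Of 24 listed 16 were found, among them the transcription factors xbp1, atf4b1 and atf4b2 and the ubiquitin ligase syvn1, and 14 passed there. Of these 8 were higher by 2-fold or more (calrl, canx, pdia2, p4hb, hyou1, creld2, sdf2l1 and xbp1) and none was lower. Of all features 24.9% were higher and 15.7% lower by this fold. The median of the 14 was 1.02, where the median of all features was 0.10. In the otpb.A:egfp pair 3 of 12 were higher (calrl, creld2 and xbp1) and syvn1 was lower, against 10.2% and 25.8% of all features. Their median was 0.31, where that of all features was -0.44. Examples are hyou1 with 141 and 354 reads (1.04) and p4hb with 98 and 318 reads (1.40) in the ETvmat2:GFP pair. Markers of the hatching gland, a gland that secretes enzymes, were also higher in GFP-positive cells. The 5 marker genes held 69 and 699 reads in the ETvmat2:GFP pair, a log2 ratio of 3.06, and 199 and 875 in the otpb.A:egfp pair, a log2 ratio of 3.17. At 36 h and 48 h, in another line and assay and given without comparison, these markers stood at 6.36 and 3.51. The 6 chaperones of the reticulum stood at -0.30 and 0.12 there, and the sum of the 16 other folding genes at -0.003 and 0.42. Immediate early genes, which respond to cell dissociation, held 119 and 340 reads (1.24) in the ETvmat2:GFP pair and 73 and 60 (0.75) in the otpb.A:egfp pair. The part of these, and of the heart, leukocyte and endothelium cells in the ETvmat2:GFP sort, in the 24 h result was not tested.

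The 24 h proteasome ratios were uneven. The gene psmc6, an ATPase of the 19S regulator and the proteasome gene with most reads in both pairs, held 312 and 505 reads in the ETvmat2:GFP pair (0.42 [0.21, 0.63]) and 333 and 376 in the otpb.A:egfp pair (95% interval [0.99, 1.42]). The alpha subunit gene psma3 held 84 and 176 reads in the otpb.A:egfp pair (2.06 [1.72, 2.49]), while psma2, of the same ring, held 41 and 5 there (-1.76 [-3.70, -0.67]). All 6 ATPases of the 19S regulator that passed in that pair were above 0, with summed reads of 627 and 595 (0.96 [0.79, 1.12]). Of these reads 58.0% were of psmc6, and without it the sum stood at 0.61 [0.35, 0.86]. Of the beta subunits, psmb2 (29 and 4 reads), psmb4 (88 and 19) and psmb5 (103 and 23) were lower by 2-fold or more. Of 28 proteasome features that passed there, 4 were higher and 5 lower by this fold, against 10.2% and 25.8% of all features. In the ETvmat2:GFP pair 3 of 35 were lower by 2-fold or more, against 15.7% of all features. These were psma6a with 32 and 14 reads, psma4 with 109 and 56, and psmb6 with 34 and 18, all of the core. As sums the core and the regulator did not part at 24 h. The contrast of regulator to core was 0.02 (approximate interval [-0.15, 0.18]) in the ETvmat2:GFP pair and 0.05 [-0.14, 0.24] in the otpb.A:egfp pair. Their medians did differ in the otpb.A:egfp pair, at -0.50 over 9 core and 0.05 over 19 regulator features that passed. With the median of features of like exon length taken off, these were -0.03 and 0.42. In the ETvmat2:GFP pair the medians were -0.15 and -0.17, and 0.04 and -0.18 after that step. DnaJ genes also lay on both sides in the otpb.A:egfp pair, with dnajc5g at 58 and 99 reads (1.76) and dnajc21, a ribosome biogenesis factor, at 93 and 15 (-1.52). NanoCAGE reads the 5′ ends of RNAs, and per-length levels from it do not have the usual meaning.

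The heat-inducible genes hsp70l, dnajb1b and hsp90a.2 were higher at 96 h than at 72 h in both sorts, within the same line and assay. Of other members known to respond to heat, hspb1 did not share this in GFP-negative cells, with 14 reads at 72 h and 4 at 96 h. In GFP-positive cells hspb1 held 1 and 5 reads. The gene dnajb1a held at most 1 read in each of these libraries, too few to tell. Further heat shock genes, on few reads, were mixed. In GFP-negative and GFP-positive cells hsp47 stood at 163 and 37.8 CPM at 72 h and at 15.7 and 0 CPM at 96 h. For hsp90a.1 these values were 50.2 and 0, then 15.7 and 0 CPM. For hspd1 they were 138 and 75.7, then 173 and 56.7 CPM. For hspe1 they were 113 and 75.7, then 157 and 99.3 CPM. The gene hsp70l on chromosome 8 (Zv9, 5006699 to 5009449) encodes the inducible cytosolic Hsp70. At 96 h it held 136 reads (GFP-negative) and 142 reads (GFP-positive), which is 2137 and 2014 CPM, a log2 ratio of -0.18 [-0.53, 0.17]. At 72 h it held 0 reads in both libraries, which allows up to 37.7 and 56.7 CPM from 3 reads per library. The 96 h level was thus at least 56.7-fold higher than the 72 h level in GFP-negative cells and at least 35.5-fold higher in GFP-positive cells. The libraries of the other lines, which differ in depth, assay or both, held between 0.263 and 10.6 CPM. The second copy of hsp70l, on chromosome 3, held 8 and 5 reads at 96 h and at most 8 reads in any other library. Reads may be shared between such near-identical copies, so their split is uncertain. At 96 h dnajb1b, an Hsp40 partner of inducible Hsp70, held 28 and 16 reads (440 and 227 CPM) against 1 and 0 reads at 72 h, and hsp90a.2, the stress-responsive cytosolic Hsp90, held 31 and 24 reads (487 and 340 CPM) against 13 and 3. The constitutive hspa8 held 265 and 379 reads (4165 and 5375 CPM) at 96 h and 300 and 166 (3766 and 3140 CPM) at 72 h. Immediate early genes were also higher at 96 h than at 72 h. The 7 found of the list summed to 1289 and 936 CPM at 96 h and to 402 and 208 CPM at 72 h. In the 36 h and 48 h libraries, of another line and given without comparison, they stood between 419 and 1360 CPM and hsp70l between 0.263 and 10.6 CPM. The part of handling in these values was not tested, and age and sort session cannot be told apart with 1 library each.

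**Figure D5:**
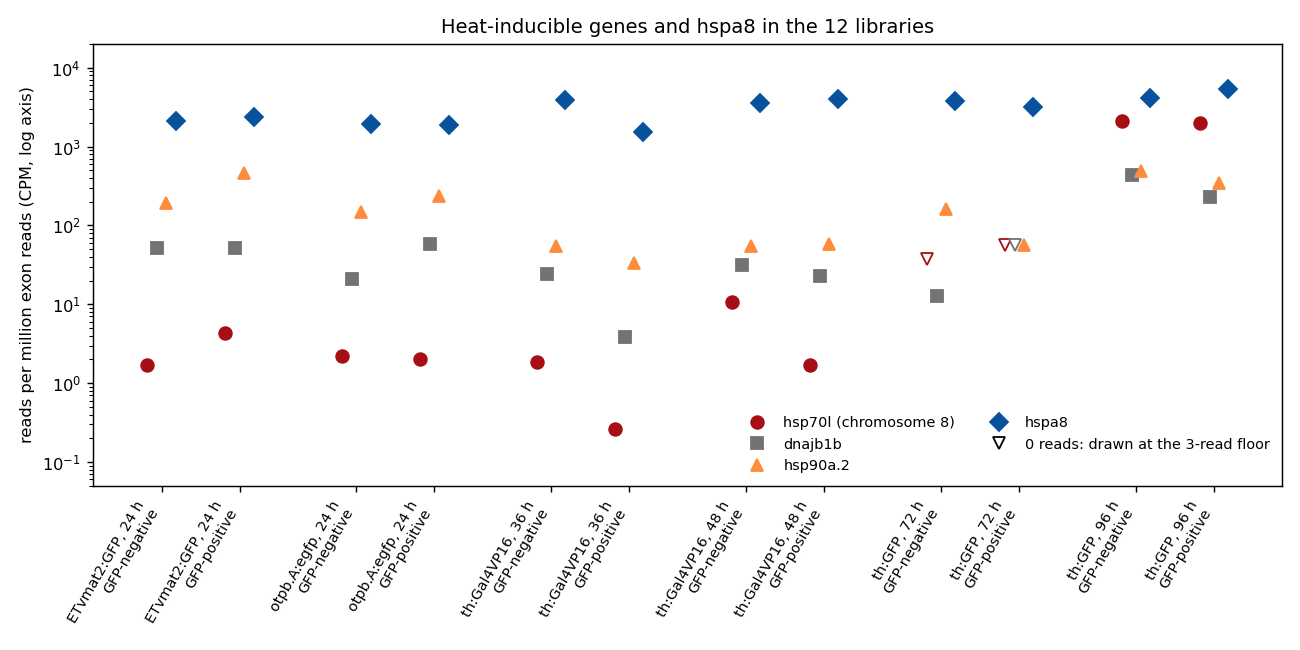
Level (CPM, log axis) of hsp70l on chromosome 8, dnajb1b, hsp90a.2 and the constitutive hspa8 in each of the 12 libraries; open triangles mark 0 reads, drawn at the level of 3 reads. At 96 h hsp70l reaches 2137 and 2014 CPM, near hspa8 at 4165 and 5375 CPM, and at 72 h it has no reads; libraries of the other lines and assays are shown beside these without comparison.

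At 48 h hsp70l was lower in the sorted GFP-positive cells. It held 294 reads in GFP-negative and 43 in GFP-positive cells (10.6 and 1.72 CPM), a log2 ratio of -2.71 [-3.26, -2.30], the only member lower by 2-fold or more there. At 36 h it held 40 and 6 reads (-1.84 [-3.62, -0.84]), below the minimum level. The gene dnajb1b went the same way, with 515 and 88 reads at 36 h (-1.88 [-2.24, -1.57]) and 878 and 564 at 48 h (-0.63 [-0.78, -0.47]). The gene hsp90a.2 did not, with 0.02 at 36 h and -0.06 at 48 h. In zebrafish hsp70l is also known for expression in the embryonic lens without heat. The 6 lens markers found held 216 and 116 CPM at 36 h (-0.15) and 411 and 76.6 CPM at 48 h (-2.56). Immediate early genes stood at -0.95 and 0.02 at these ages. The part of lens cells or of handling in the hsp70l ratios was not tested.

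Among members that passed the minimum, the highest ratios at 36 h and 48 h belonged to small heat shock genes. The gene hspb7, a small heat shock gene expressed in heart and skeletal muscle (chromosome 23, Zv9, 24543282 to 24550320), held 15 reads in GFP-negative and 701 in GFP-positive cells at 36 h, a log2 ratio of 5.98 [5.46, 7.04]. At 48 h it held 31 and 194 reads, a log2 ratio of 2.58 [2.10, 3.25]. It was the only one of 90 members that passed at both ages to be higher by 2-fold or more at both, where 7.69% of all features that passed at both were. The 6 heart markers moved with it, at 8.91 at 36 h (106 and 32645 reads) and 3.82 at 48 h (431 and 6049 reads). In the ETvmat2:GFP pair hspb7 held 0 and 8 reads where the heart markers stood at 5.79. The gene hspb1, which encodes Hsp27, held 292 and 614 reads at 36 h (1.71 [1.52, 1.93]) and 254 and 480 at 48 h (0.92 [0.71, 1.15]). Its exons sum to 884 bases, and all features of 701 to 1000 bases had a median of 0.59 at 36 h and -0.02 at 48 h. The gene hspb8, a partner in chaperone-assisted autophagy, held 203 and 504 at 48 h (1.31 [1.08, 1.57]). At 24 h hspb12 held 1 and 34 reads in the ETvmat2:GFP pair and 0 and 18 in the otpb.A:egfp pair. The latter is at least 12.3-fold higher against a floor of 3 reads per library. No read of hspb12 was found in the 8 mRNA-seq libraries. The part of heart and skin cells in these ratios was not tested.

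The muscle Hsp90 gene hsp90a.1, needed for myosin folding in zebrafish, had the sign of the skeletal muscle marker sum in the 4 pairs of 24 h to 48 h. It held 447 and 176 reads in the ETvmat2:GFP pair (-1.61 [-1.88, -1.37]) and 280 and 499 at 48 h (0.84 [0.63, 1.06]). The summed 15 muscle markers stood at -2.11 and 1.27 in these pairs. In the otpb.A:egfp pair and at 36 h hsp90a.1 stood at -0.17 and -0.56 and the markers at -0.38 and -0.06. Its neighbour on chromosome 20, hsp90a.2, stood at 0.61 in the ETvmat2:GFP pair and -0.06 at 48 h. In the ETvmat2:GFP pair 86.8% of hsp90a.1 reads and 87.3% of hsp90a.2 reads were unique. The myosin chaperone gene unc45b, which is not a member, held 74 and 39 reads in the ETvmat2:GFP pair (-1.16). The part of muscle cells in the hsp90a.1 ratios was not tested.

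Mitochondrial chaperones parted at 36 h. The genes hspd1 (Hsp60) and hspe1 (Hsp10) encode the partners of 1 chaperonin and are neighbours on chromosome 9 (Zv9, 33319913 to 33334091 and 33334325 to 33338315). At 36 h hspd1 held 3622 and 2230 reads, a log2 ratio of -0.05 [-0.13, 0.02], and hspe1 held 4891 and 7802, a log2 ratio of 1.32 [1.27, 1.37]. At 48 h they stood at 0.25 and -0.01. The exons of hspe1 sum to 1810 bases and those of hspd1 to 2873 bases. The import motor gene dnajc19 (520 bases of exon) held 603 and 1254 reads at 36 h (1.70 [1.56, 1.85]) and 685 and 707 at 48 h (0.06). All features of up to 700 bases had a median of 1.29 at 36 h.

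DnaJ genes known from synapses and from amine synthesis (dnajc5aa, dnajc6 and dnajc12) summed to log2 ratios of -0.45 at 36 h and -0.48 at 48 h. The gene dnajc5aa encodes a cysteine string protein of synaptic vesicles. It held 682 and 214 reads at 36 h (-1.02 [-1.25, -0.80]) and 756 and 504 at 48 h (-0.57 [-0.74, -0.41]). The auxilin gene dnajc6, which uncoats clathrin vesicles, held 199 and 163 reads (0.36) and 420 and 270 (-0.62). The gene dnajc12, whose human counterpart is a cochaperone of the aromatic amino acid hydroxylases, including tyrosine hydroxylase, held 56 and 61 reads at 36 h (0.75 [0.22, 1.32]) and 33 and 88 at 48 h (1.37 [0.83, 2.05]). It stayed under 5 CPM in every mRNA-seq library of those ages and so did not pass the minimum. The exons of dnajc12 sum to 567 bases. All features of up to 700 bases had a median of 1.29 at 36 h, above its ratio there, and of -0.02 at 48 h. The summed 11 neuronal markers stood at -0.38 and -0.86 at these ages.

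Immunoproteasome-type subunits, the beta subunits that replace the standard sites in immune cells, were near 0. Over the 12 libraries psmb8, psmb9a and psmb10 held at most 19 reads each in any library, and none passed the minimum. At 48 h psmb8 held 1 and 13 reads, psmb9a 9 and 19, and psmb10 0 and 6. The feature psmb11 held 9 and 45 reads there.

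The shallow 72 h and 96 h pairs resolve sums and few genes. At 72 h the heat shock sum held 644 and 326 reads, a log2 ratio of -0.62 [-0.81, -0.42], and the chaperonin sum 205 and 107, a log2 ratio of -0.57 [-0.92, -0.23]. The median of all features past the minimum was -0.36. The 3 members lower by 2-fold or more were hsp90b1 with 21 and 5 reads, cct3 with 30 and 9, and the core subunit psmb5 with 23 and 7. At 96 h the proteasome sum held 367 and 429 reads (-0.02 [-0.22, 0.18]) and the chaperonin sum 148 and 234 (0.42 [0.11, 0.72]). The constitutive hsp90ab1 held 150 and 246 (0.46 [0.17, 0.77]). The 2 members higher by 2-fold or more were cct8 with 10 and 35 reads (1.41 [0.52, 2.74]) and psmb4 with 9 and 24 (1.03 [0.01, 2.46]).

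Other genes of these pathways were read beside the members. Of 22 listed proteasome regulators and assembly factors 17 were found, and at 36 h 14 passed, of which 1 was higher by 2-fold or more and 2 were lower, with a median of -0.32. At 48 h 15 passed and none was 2-fold apart, with a median of -0.18. Of 33 listed cochaperones and heat shock factors 25 were found, among them the chaperonin subunit gene tcp1, which is neither. At 36 h 14 passed, 3 were higher and 1, tcp1, was lower, with a median of 0.21. At 48 h 18 passed, 2 were higher and none was lower, with a median of -0.18. The medians of all features past the minimum were -0.09 and -0.08. Of all features 13.9% were higher and 10.4% lower by 2-fold or more at 36 h, and 17.6% and 6.53% at 48 h.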

How the data were processed

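The 6 deposited tables list 32312 features. Positions and exon lengths were taken from the ETvmat2:GFP table (Zv9 build, per the file headers). The aligner is not given in the sources used here. The ETvmat2:GFP table names its libraries and gives deposited counts (total and unique exon reads) and RPKM. The other 5 hold 174 per-library columns that could not be tied to a sample and were not used. There reads were recovered from score columns the authors deposited, the difference and signed fold of RPKM between the libraries, with the exon length. All recovered values were whole within 0.02 reads, and in the ETvmat2:GFP table they equalled the deposited counts in all 17237 features with a difference. The direction, GFP-positive minus GFP-negative, holds there in all 32312 features and was assumed for the other tables from the like sheet heading, so each direction outside the ETvmat2:GFP pair rests on the authors' deposited tables following 1 convention. The 4483 features listed with exon length 0 give no reads.

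CPM used all exon reads of a library. Log2 ratios used TMM factors (edgeR 4.0.16, R 4.3.3), a prior count of 2, and the minimum given in the text. Intervals are Clopper-Pearson, and contrasts of classes have approximate (Woolf) log intervals. No p-values were computed, since each group has 1 library. The script was checked on simulated data. The genes named are, per experiment, members at least 2-fold apart with an interval that leaves out 0 (at most the 8 largest each way), the 3 per class with most reads, and a list of inducible and constitutive members. Genes outside this rule, such as dnajc12 and dnajc6, were chosen after their values were seen. The members, subsets and lists were chosen with earlier results of these data known. Of 82 members with 20 or more reads in the ETvmat2:GFP table, 6 had under 90% unique reads, among them dnajc7, dnajc8 and dnaja3b, whose counts are uncertain. The others were hsp90a.1 (86.8%), hsp90a.2 (87.3%) and psma6a (87.0%). Promoter motifs were planned and not analysed here.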

Additional observations from a re-analysis of the deposited data

Results flagged for a closer look

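The DnaJ gene dnaja1l lay on opposite sides of 0 in the 24 h lines under all 3 scalings. It held 24 reads in GFP-negative and 71 in GFP-positive ETvmat2:GFP cells, a log2 ratio of 1.23 [0.60, 2.02], and 43 and 7 reads in the otpb.A:egfp pair, a log2 ratio of -1.43 [-2.99, -0.42]. The shifts by total-read scaling (0.63 and 0.43) are smaller than these ratios, so no scaling used here could turn either sign. The difference between the lines was not tested, since each group has 1 library.

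The chaperonin sum lay on opposite sides of 0 in the th:GFP pairs, at -0.57 at 72 h and 0.42 at 96 h, with counting intervals that left out 0 under all 3 scalings. The difference was not tested. The skeletal muscle markers stood at -2.60 and -1.70 in these pairs and the skin and periderm markers at -2.43 and 0.06.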

How the results depend on the processing

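No paired analysis was possible because each group has 1 library, and for the same reason no replicate could be left out. Class sums depend on the scaling. With total-read scaling the ETvmat2:GFP sums became 0.54 for proteasome, 0.45 for heat shock, 0.49 for DnaJ and 0.26 for chaperonin genes, all reversed from below 0. In the otpb.A:egfp pair heat shock (0.13) and chaperonin (0.22) reversed, and proteasome and DnaJ moved to 0.77 and 0.66. At 36 h the sums moved to -0.77, -0.91, -0.96 and -1.52 in the same order. For 48 h heat shock (0.086) and DnaJ (0.0072) reversed, and proteasome and chaperonin moved to -0.19 and -0.12. At 72 h proteasome and heat shock moved to -0.20 and -0.39. For 48 h over 36 h, the GFP-negative sums were -0.18, -0.46, -0.082 and -0.22, reversed except for heat shock, and the GFP-positive sums were 0.40 (reversed), 0.54, 0.89 and 1.18. The counts at least 2-fold higher and lower became 15 and 0 in the ETvmat2:GFP pair, 16 and 6 in the otpb.A:egfp pair, and 1 and 52 at 36 h. They stand without the share of all features past 2-fold under that scaling, which shifts every feature alike.

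With RLE scaling the proteasome and heat shock sums were -0.016 and -0.15 (36 h), -0.34 and -0.061 (48 h), and 0.23 and 0.37 (96 h). For 48 h over 36 h they were 0.20 and -0.081 in GFP-negative cells and -0.13 and 0.0074 in GFP-positive cells, with chaperonin at 0.65. With a minimum of 50 CPM the counts were 4 and 3 in the ETvmat2:GFP pair, 7 lower in the otpb.A:egfp pair, 3 and 3 (36 h), and 0 and 0 (48 h). With no minimum they were 13 lower in the ETvmat2:GFP pair, 17 higher in the otpb.A:egfp pair, 12 and 15 (36 h), 11 higher (48 h), 2 and 14 (72 h), and 4 and 2 (96 h). A minimum on the mean of both libraries gave 1 higher at 48 h, and a prior count of 0.5 gave 1 lower at 96 h. The shares of all features past 2-fold under these minimums and this prior are not given here. These counts therefore have no background beside them and are not a result about the members. Unique exon reads (ETvmat2:GFP pair) and leaving out the 4 name-only matches (proteasome and heat shock sums, chosen after the data were seen) moved no sum beyond its interval. No named gene called at least 2-fold apart reversed its direction under any alternative run. For the scalings this was fixed in advance. A call needs a log2 ratio of at least 1 in size, and the largest scaling shift was -0.74, at 36 h. Named genes without such a call could change sign. In the ETvmat2:GFP pair hspa8 was below 0 with TMM, while by total reads it held 2084 (GFP-negative) and 2394 CPM (GFP-positive). With total-read scaling 82 of 185 values of named genes moved beyond their interval. The cause of these shifts was not tested. Depth limits the 72 h and 96 h pairs, where 3 reads equal 37.7 to 56.7 CPM. The promoter motif count was not run.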
